A study of Homo sapiens with 6 samples.

Results

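The 10 genes described here encode the main heat shock chaperones of the cytosol and of mitochondria: HSPH1, HSPA1A, HSPA1B, HSPA8, HSP90AA1, HSP90AB1, DNAJB1, HSPB1, HSPD1 and HSPE1. They were taken by symbol from a deposited table of 35009 genes, each symbol had 1 row, and all 10 had enough counts to be tested. The libraries hold polyadenylated RNA of THP-1 macrophages, grown from a line of human monocytic leukaemia, and all 6 carry labels of treatment with ox-LDL, the oxidised lipoprotein that turns macrophages into foam cells. In the 3 siMCT4 libraries the cells are labelled MCT4 deficient, by a small interfering RNA against the lactate exporter MCT4, and in the 3 control libraries as genotype control. The labels give neither whether controls received a non-targeting siRNA nor separate cultures for the libraries within a group, nor any dose or time. Loss of MCT4 therefore cannot be told apart from the siRNA itself, and the spread behind each p-value, that between these libraries, may be technical.

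Chaperones bind unfolded protein and release it for folding. In the cytosol the Hsp70 proteins (HSPA8, made at all times, and the stress-induced pair HSPA1A and HSPA1B) are loaded with substrate by J-domain proteins such as DNAJB1, and HSPH1 (Hsp110) frees their nucleotide and helps to dissolve aggregates. Hsp90 (the stress-induced HSP90AA1 and the constitutive HSP90AB1) finishes the folding of kinases and receptors, the small protein HSPB1 (Hsp27) holds unfolded protein in a soluble state, and HSPD1 (Hsp60) with its lid HSPE1 (Hsp10) forms the folding chamber of the mitochondrial matrix. On heat or oxidative damage the transcription factor HSF1 binds repeated GAA units, the heat shock elements, in the promoters of these genes.

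RefSeq promoter windows that bear on the results are printed here, to show where those elements stand in genes that moved and in genes that did not. Each is the RefSeq window of GRCh38.p14 from 250 bases before to 50 bases after an annotated start, 5′ to 3′ along the gene. Capitals mark every copy of 2 facing units, GAANNTTC or TTCNNGAA. HSPH1 (chr13:31162339-31162638, minus strand), HSP90AB1 (chr6:44247693-44247992, plus strand), HSPD1 (chr2:197499791-197500090, minus strand) and HSP90AA1 (chr14:102086995-102087294, minus strand) come first, followed by the near-identical HSPA1A (chr6:31815293-31815592, plus strand) and HSPA1B (chr6:31827488-31827787, plus strand).
HSPH1: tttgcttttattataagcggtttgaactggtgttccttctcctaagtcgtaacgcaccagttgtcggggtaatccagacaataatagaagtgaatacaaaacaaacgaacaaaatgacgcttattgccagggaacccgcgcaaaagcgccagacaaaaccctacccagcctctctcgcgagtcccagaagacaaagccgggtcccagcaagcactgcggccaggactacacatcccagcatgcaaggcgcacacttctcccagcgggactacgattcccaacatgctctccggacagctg
HSP90AB1: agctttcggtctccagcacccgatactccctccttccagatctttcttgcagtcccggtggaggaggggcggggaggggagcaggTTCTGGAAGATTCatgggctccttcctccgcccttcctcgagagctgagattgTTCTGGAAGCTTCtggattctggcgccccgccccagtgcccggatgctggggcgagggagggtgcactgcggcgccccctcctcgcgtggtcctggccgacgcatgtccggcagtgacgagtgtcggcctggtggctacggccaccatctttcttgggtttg
HSPD1: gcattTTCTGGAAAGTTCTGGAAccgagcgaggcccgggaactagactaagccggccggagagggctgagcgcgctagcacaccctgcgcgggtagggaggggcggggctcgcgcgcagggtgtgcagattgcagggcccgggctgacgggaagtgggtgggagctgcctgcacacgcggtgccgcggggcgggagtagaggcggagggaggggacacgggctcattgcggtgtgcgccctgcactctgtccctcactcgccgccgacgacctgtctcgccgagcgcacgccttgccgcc
HSP90AA1: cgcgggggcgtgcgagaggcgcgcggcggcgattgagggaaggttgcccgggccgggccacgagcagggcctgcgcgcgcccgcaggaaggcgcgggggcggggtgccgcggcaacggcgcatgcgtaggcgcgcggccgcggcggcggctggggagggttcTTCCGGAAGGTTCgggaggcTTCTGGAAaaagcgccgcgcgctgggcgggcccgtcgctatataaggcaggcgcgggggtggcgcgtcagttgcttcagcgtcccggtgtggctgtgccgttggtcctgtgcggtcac
HSPA1A: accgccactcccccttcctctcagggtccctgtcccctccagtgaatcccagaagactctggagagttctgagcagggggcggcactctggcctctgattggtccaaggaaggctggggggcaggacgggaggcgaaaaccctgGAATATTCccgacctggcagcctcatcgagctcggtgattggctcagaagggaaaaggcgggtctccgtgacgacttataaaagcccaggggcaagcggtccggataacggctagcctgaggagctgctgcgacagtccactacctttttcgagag
HSPA1B: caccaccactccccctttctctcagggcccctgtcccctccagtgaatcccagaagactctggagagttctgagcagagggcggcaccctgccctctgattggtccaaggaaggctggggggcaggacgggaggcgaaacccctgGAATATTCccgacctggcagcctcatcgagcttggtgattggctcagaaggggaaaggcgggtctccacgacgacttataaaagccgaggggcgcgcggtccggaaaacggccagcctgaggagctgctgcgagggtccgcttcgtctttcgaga
The RefSeq starts are not all those of the deposited genes. The printed HSPH1 window lies wholly upstream, its near edge 300 bases beyond the 5′ end of the deposited HSPH1 gene, so that end was not searched. The printed starts of HSP90AB1, HSPD1 and HSP90AA1 lie 1777, 434 and 52655 bases inside the deposited genes, and those of HSPA1A and HSPA1B match them. HSP90AB1, HSPD1 and HSP90AA1 have other annotated starts, whose windows are not printed and hold no element of either kind.

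All 10 genes matched, with 16 windows between them, and the search was of both strands. A run of 3 units, GAANNTTCNNGAA or its reverse complement TTCNNGAANNTTC, lies in a window of 4 of the 10 genes and of 0.608% of all 27305 genes (0.490% of 35116 windows). In HSP90AB1 the runs begin 165 and 112 bases before the start, and in HSPD1 overlapping runs begin 245 and 240 bases before it. HSPA8 has them at 230 and 55 bases (chr11:123062087-123062386, minus strand) and HSP90AA1 at 88 bases. A pair of facing units, which every run of 3 contains, lies in a window of 8 of the 10 genes and of 16.2% of all genes (13.5% of windows). Genes with several windows have more chances to hold the letters. HSPA1A has such a pair 106 bases and HSPA1B 105 bases before the start, DNAJB1 at 77 and 47 bases (chr19:14518348-14518647, minus strand) and HSPB1 at 182 bases (chr7:76302423-76302722, plus strand). The HSPH1 and HSPE1 windows hold neither form, which says only that these letters are not in these 300 bases. HSPA1A also has CCAAT boxes 153 and 69 bases and a TATA box (TATAAA) 30 bases before the start, and HSPA1B has the same letters at 152, 68 and 29 bases. The printed windows of the pair are 92.0% identical. CCAAT is in 34.6% and TATAAA in 11.5% of all windows.

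**Figure D1:**
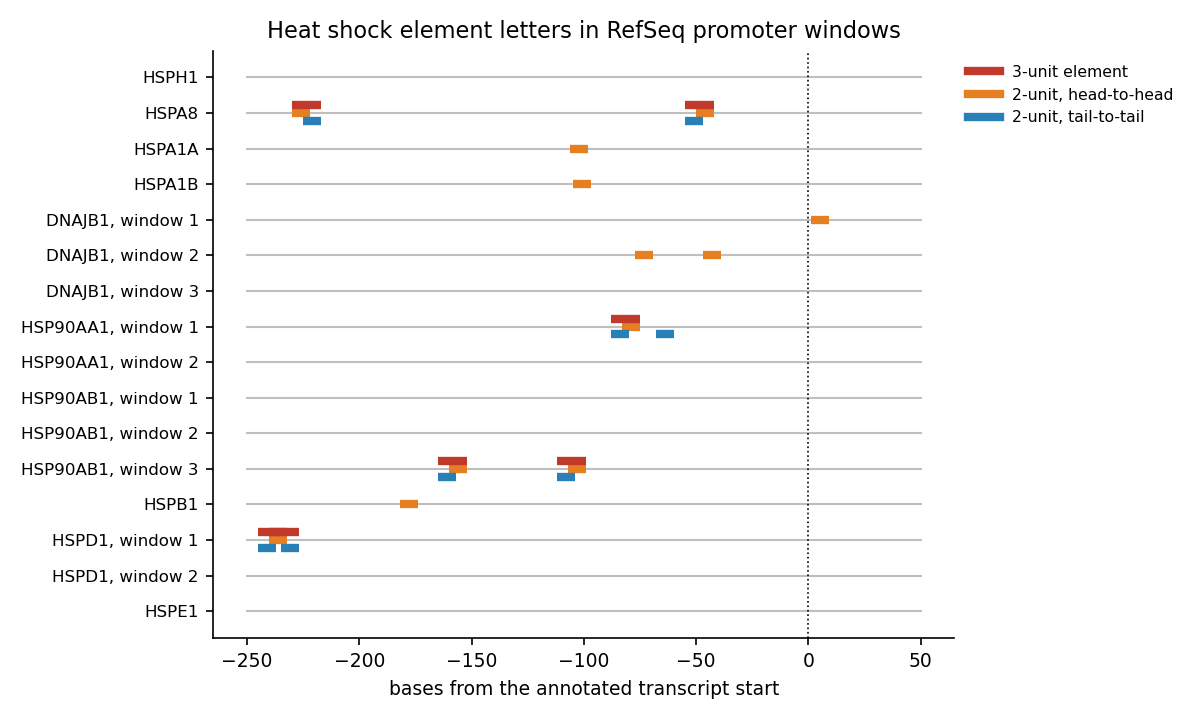
Positions of runs of 3 GAA units (red) and of both forms of 2 facing units (orange, blue) in the 16 RefSeq promoter windows of the 10 chaperone genes, in bases from the annotated start (0), 1 row per window, with windows of a gene numbered by coordinate. Runs of 3 units appear in windows of 4 genes, among them HSP90AA1 and HSPA8. The HSPH1 row has neither a run nor a pair, but its window lies wholly upstream of the deposited gene, whose 5′ end was not searched.

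The siRNA target SLC16A3, which encodes MCT4, had 10.8, 11.1 and 13.4 CPM in siMCT4 libraries 1, 2 and 3 and 115, 101 and 108 CPM in control libraries 1, 2 and 3 (TMM-scaled counts per 1000000). It fell by 3.20 on the log2 scale (adjusted p = 1.12e-06). Adjusted p-values are from edgeR's quasi-likelihood fit of all genes, by the Benjamini-Hochberg method, unless another tool is named. Total counts were 61880619 to 69181938 per library. siMCT4 library 3 stood apart: across 11236 genes with a mean above 4 CPM, its log2 CPM correlated at 0.973 with those of siMCT4 libraries 1 and 2, while the other pairs within a group reached 0.991 to 0.992. Of 12 macrophage and monocyte markers, all tested, 0 were called higher and 8 lower, against 20.6% and 20.8% of all 19944 tested genes. Their summed level was 4718 to 4970 CPM in siMCT4 and 5677 to 5748 CPM in controls. CD68, 1 of the 4 not called, stood at 967 ± 60.6 CPM in siMCT4 and 920 ± 17.1 CPM in controls (mean ± SD, n = 3, here and below). The largest falls of the list were those of CD14 and CD163. CD14 had 3.12 ± 0.990 CPM in siMCT4 and 12.4 ± 0.609 CPM in controls, and CD163 13.4 ± 1.55 and 39.9 ± 3.05 CPM. In bulk RNA, fewer cells of a type and less RNA per cell cannot be told apart.

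Markers of other cells were present, some in part of the libraries and others in all 6. COL1A2, a fibroblast collagen, had 1892, 1782 and 0 counts in siMCT4 libraries 1, 2 and 3 and 0 in each control. KRT18, an epithelial keratin, had 172, 112 and 0 counts in siMCT4 and 0, 0 and 4 counts in controls. The 5 of 6 fibroblast markers in the table summed to 35.1, 31.5 and 7.07 CPM in siMCT4 and 5.63 to 7.21 CPM in controls, of which COL1A2 made up 29.6 and 25.6 CPM in siMCT4 libraries 1 and 2. The other fibroblast markers did not move with it: COL1A1 had 2.85, 2.52 and 6.25 CPM in siMCT4 and 4.43 to 6.32 CPM in controls, and COL3A1 and DCN were at or near 0 in every library. The 5 epithelial markers summed to 5.03, 2.59 and 0.240 CPM in siMCT4 and 0.141 to 0.285 CPM in controls, mostly KRT18 and KRT8. The T cell list, of which the table has TRAC alone, summed to 2.16 to 2.35 CPM in siMCT4 and 11.7 to 15.2 CPM in controls, and the B cell list (4 of 5) to 8.94 to 10.1 CPM in siMCT4 and 2.70 to 3.15 CPM in controls. The endothelial list (4 of 5) summed to 18.9 to 23.0 CPM in siMCT4 and 136 to 146 CPM in controls, nearly all of it VWF (19.7 ± 2.23 and 140.5 ± 5.69 CPM; mean ± SD, n = 3), while KDR and TEK were not called and CLDN5 was at or near 0. The part of these RNAs in the chaperone values was not tested. Each called chaperone is given below also from siMCT4 library 3 alone against the 3 controls, where the single siMCT4 library is assumed to vary like the controls, and without siMCT4 library 3. The T cell, B cell and endothelial sums of library 3 (2.21, 8.997 and 19.0 CPM) were like those of siMCT4 libraries 1 and 2.

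Of the 10 chaperones, 4 rose in siMCT4 macrophages (HSPH1, HSP90AB1, HSPD1 and DNAJB1), 1 fell (HSPB1) and 5 were not called. The called share of 50.0% stands beside 41.4% of all 19944 tested genes, of which 20.6% were called higher and 20.8% lower, so the number called is near the background. HSPH1 differs from the other members by size: it was 2.06-fold higher, whereas the next largest called rise was 1.26-fold. The median log2 change was 0.12 for the 10 and -0.006 for all tested genes. CPM of the groups did not overlap for 5 of the 10, against 55.0% of all tested genes.

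**Figure D2:**
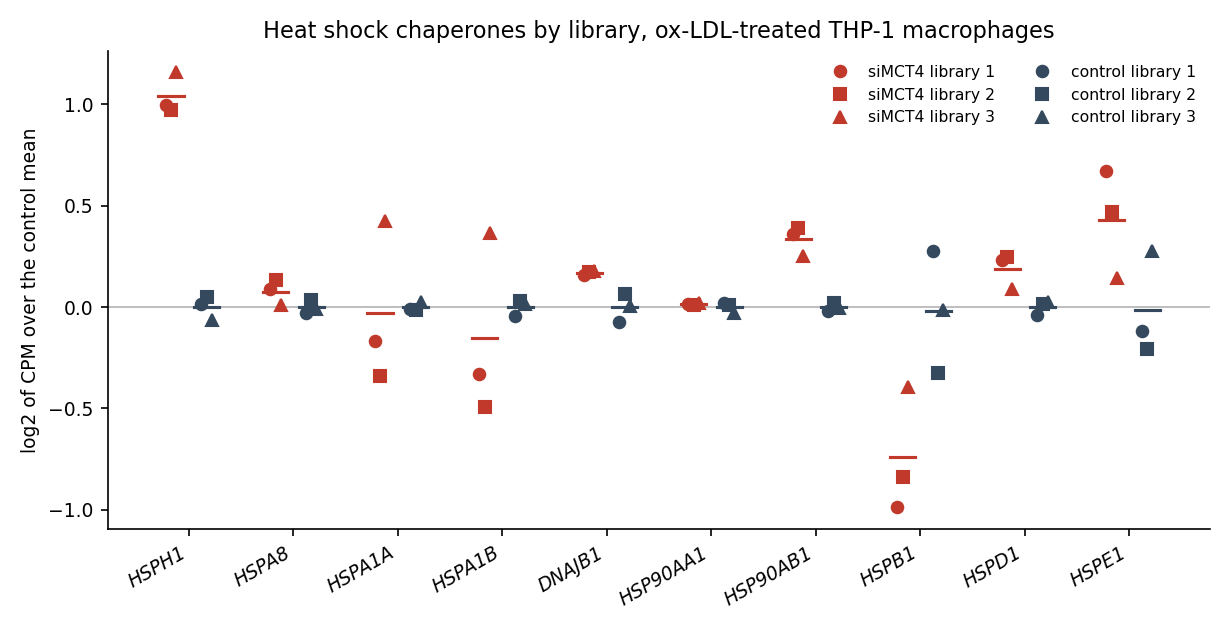
Expression of each of the 10 chaperones in the 3 siMCT4 and the 3 control libraries, as log2 of CPM over the control mean of that gene, with a bar at the mean of the 3 values. HSPH1 stands near 1 in every siMCT4 library, and HSPA1A and HSPA1B are above the controls in siMCT4 library 3 and below them in libraries 1 and 2.

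HSPH1, the Hsp110 partner of Hsp70 (ENSG00000120694; GRCh38, chr13:31134973-31162039, minus strand, per the deposited table, which annotates all 10 as protein-coding), had 458, 449 and 511 CPM in siMCT4 libraries 1, 2 and 3 and 231, 237 and 219 CPM in control libraries 1, 2 and 3. Every siMCT4 library was far above every control, with library 3 the highest. The log2 change was 1.05 (SE 0.0613; adjusted p = 1.61e-05). It was 1.01 without siMCT4 library 3 and 1.18 from library 3 alone, and HSPH1 was called higher in all 19 alternative settings (0.97 to 1.24). The counts behind these values were 29222 to 36231 in siMCT4 and 13831 to 15504 in controls, and no 150-base stretch of its transcript occurs in an annotated transcript of another gene. The per-length level moved HSPH1 past HSPB1 and close to HSPA1A and HSPD1: its FPKM (fragments per kilobase and 1000000 fragments) was 54.4 ± 3.74 in siMCT4 and 24.4 ± 1.23 in controls. The FPKM ratio of HSPH1 to HSPA8, its main Hsp70 partner in unstressed cells, was 0.212, 0.202 and 0.250 in siMCT4 and 0.116, 0.114 and 0.109 in controls. The ratios of the groups did not overlap (p = 0.1, adjusted p = 0.15 over 9 quantities; exact two-sided permutation test, whose smallest p for 3 against 3 is 0.1).

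HSP90AB1, the constitutive Hsp90 (chr6:44246166-44253888, plus strand), had 2506, 2564 and 2323 CPM in siMCT4 and 1929, 1980 and 1950 CPM in controls. All 3 siMCT4 libraries were higher, library 3 the least. Its log2 change of 0.34 (SE 0.0459; adjusted p = 0.000964) was kept as a call in all 19 alternatives (0.27 to 0.54), with 0.27 from library 3 alone and 0.40 without it. HSP90AA1, the stress-induced Hsp90 (chr14:102080742-102139699, minus strand), had 998, 996 and 1002 CPM in siMCT4 and 1001, 995 and 967 CPM in controls, groups that overlap. Its log2 change of 0.02 (SE 0.0351; adjusted p = 0.741) was not called, nor from library 3 alone or without it (0.04 in both), and it was called in 1 alternative, on log2(TPM + 1) with limma (0.22, adjusted p = 0.00989), a scale on which the median of all genes moved to 0.11. The FPKM ratio of HSP90AB1 to HSP90AA1 was 4.29, 4.40 and 3.96 in siMCT4 and 3.29, 3.40 and 3.45 in controls, without overlap (exact permutation p = 0.1, adjusted p = 0.15). Of the Hsp90 pair, HSP90AB1 was called and HSP90AA1 was not, and both genes have runs of 3 GAA units in a window printed above. HSP90AA1 overlaps WDR20 on the opposite strand over 197 bases. The deposited WDR20 counts were 5201 in all siMCT4 libraries together and 3468 in all controls, against 204110 and 191732 for HSP90AA1.

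None of the 3 Hsp70 genes was called. HSPA8, the constitutive Hsp70 (chr11:123057489-123063230, minus strand), had 1247, 1285 and 1179 CPM in siMCT4 and 1150, 1202 and 1165 CPM in controls, values that overlap (log2 change 0.08, SE 0.0446, adjusted p = 0.207). HSPA8 passed as higher without siMCT4 library 3 (0.14, adjusted p = 0.0102) and on the 3 FPKM or TPM scales with limma (0.19 to 0.28). HSPA1A, a stress-induced Hsp70 (chr6:31815543-31817946, plus strand), had 125, 111 and 189 CPM in siMCT4 and 140, 140 and 143 CPM in controls. HSPA1B, its neighbour (chr6:31827738-31830254, plus strand), had 154, 138 and 250 CPM in siMCT4 and 188, 198 and 196 CPM in controls. For both genes siMCT4 libraries 1 and 2 lay below every control and library 3 above every control, so the log2 changes of 0.01 (SE 0.179; adjusted p = 0.968) and -0.10 (SE 0.203; adjusted p = 0.720) average libraries that moved in opposite directions. Without siMCT4 library 3, HSPA1A changed by -0.23 (adjusted p = 0.00978) and HSPA1B by -0.39 (adjusted p = 0.000655), both called lower. Library 3 alone gave 0.45 (adjusted p = 0.000903) and 0.38 (adjusted p = 0.00199), both called higher.

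Reads of this pair are hard to assign. The coding sequences of HSPA1A and HSPA1B, each of 1926 bases, differ at 4 bases (99.8% identical), and 67.1% of the 150-base stretches of the HSPA1A transcript and 66.0% of those of HSPA1B occur in the other. The values of the single genes are therefore uncertain, and the counts were also summed. The summed HSPA1A and HSPA1B level was 280, 249 and 439 CPM in siMCT4 and 328, 338 and 339 CPM in controls, the same split as for each gene. Its log2 change was -0.05 (adjusted p = 0.848), -0.32 without siMCT4 library 3 (adjusted p = 0.00141) and 0.41 from library 3 alone (adjusted p = 0.000891). The FPKM ratio of HSPA1B to HSPA1A was 1.18, 1.18 and 1.26 in siMCT4 and 1.29, 1.35 and 1.31 in controls, without overlap (exact permutation p = 0.1, adjusted p = 0.15). Relative to HSPA8, the FPKM of the pair stood at 0.441, 0.381 and 0.732 in siMCT4 and 0.561, 0.552 and 0.572 in controls (exact permutation p = 0.8, adjusted p = 0.9). The coefficient of variation in CPM was 29.3% for HSPA1A and 33.5% for HSPA1B within siMCT4, and 1.47% and 2.59% within controls.

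HSPA1B also overlaps ENSG00000285565, named AL671762.1 in GENCODE 29, on the same strand over 1421 bases. That gene had 198, 100 and 302 counts in siMCT4 and 0 in each control, at least 190-fold higher when controls are set to 3 counts over the group (adjusted p = 0.000618). Its counts were present in all 3 siMCT4 libraries and in none of the controls. They made up 600 in all, against 37132 for HSPA1B in siMCT4, and how the counting divided reads in the shared bases is not given in the sources used here.

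DNAJB1, the J-domain protein that hands substrate to Hsp70 (chr19:14514769-14560262, minus strand), had 132, 133 and 134 CPM in siMCT4 and 113, 124 and 119 CPM in controls. The siMCT4 libraries were nearly equal and all above the controls. The rise was small, 0.17 on the log2 scale (SE 0.0480; adjusted p = 0.0255), and 5 of 19 alternatives lost the call, library 3 alone among them (0.20, adjusted p = 0.0708), while the fit without library 3 gave 0.19 (adjusted p = 0.012). The FPKM ratio of DNAJB1 to HSPA8 was 0.0627, 0.0613 and 0.0671 in siMCT4 and 0.0579, 0.0608 and 0.0603 in controls, without overlap (exact permutation p = 0.1, adjusted p = 0.15). The annotated DNAJB1 interval contains 43178 bases of TECR on the opposite strand, and the strand setting of the counting is not given in the sources used here. TECR, a gene of fatty acid elongation, had 95.9 ± 6.67 CPM in siMCT4 and 105 ± 4.11 CPM in controls and was not called (adjusted p = 0.139).

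HSPB1, the small heat shock protein Hsp27 (chr7:76302673-76304292, plus strand), had 27.1, 30.1 and 40.9 CPM in siMCT4 and 65.2, 42.9 and 53.3 CPM in controls. All siMCT4 libraries were below the controls, library 3 just below control library 2. The log2 change was -0.72 (SE 0.192; adjusted p = 0.0207), and 8 of 19 alternatives lost the call. HSPB1 has a GC content of 64.3%, the highest of the 10, and GC-rich genes as a class were low in siMCT4 libraries 1 and 2. Over the 401 tested genes of 64% GC or more and a mean above 4 CPM, siMCT4 libraries 1, 2 and 3 had median log2 ratios of -0.99, -1.11 and -0.22 to the mean of the controls. The HSPB1 ratios in those libraries were -0.99, -0.84 and -0.39, so HSPB1 lay near the class median. With GC content as an offset in the fit of all libraries, HSPB1 changed by -0.13 (adjusted p = 0.468). In fits without the GC offset, HSPB1 changed by -0.37 from library 3 alone and by -0.88 without library 3 (adjusted p = 0.00239).

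**Figure D3:**
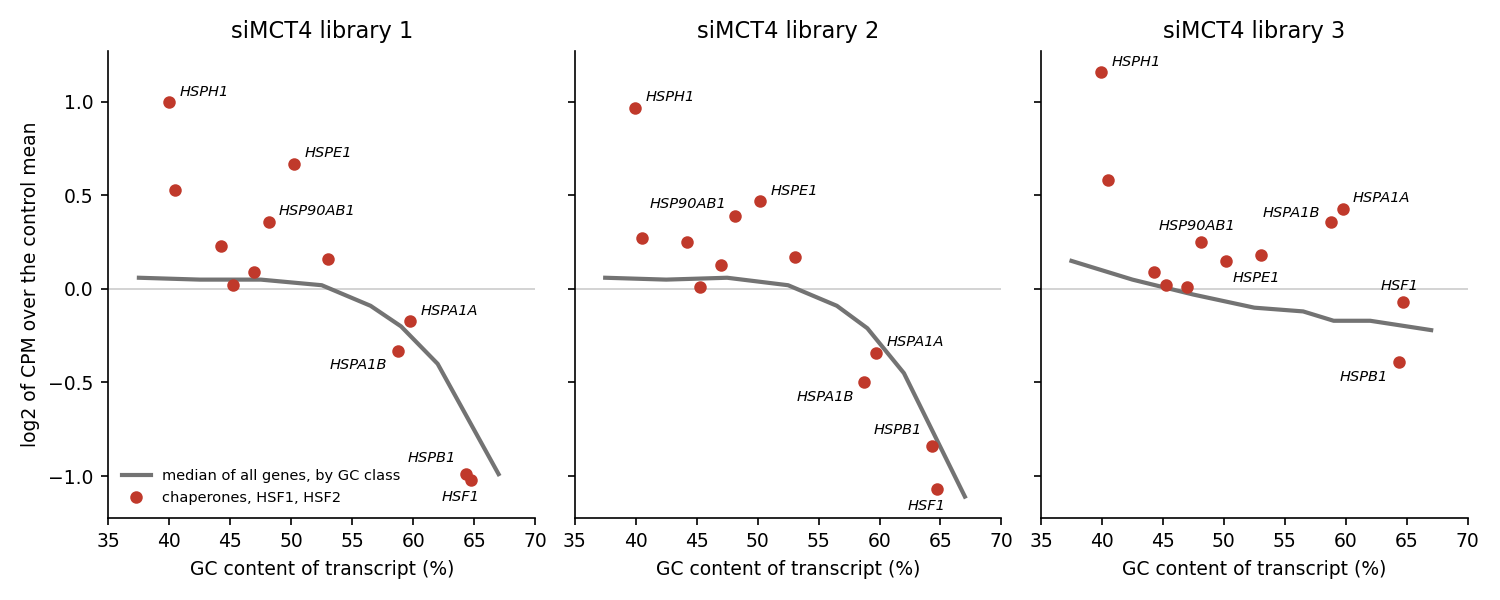
log2 ratio of CPM to the control mean against the GC content of the longest annotated transcript, 1 panel per siMCT4 library, for the 10 chaperones with HSF1 and HSF2 (points) and for the median of tested genes above 4 CPM by GC class (line). The line falls to -0.99 and -1.11 in libraries 1 and 2 and to -0.22 in library 3, and HSPB1 and HSF1 lie at its GC-rich end while HSPH1 lies far above it in every panel.

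The GC content of HSPA1A is 59.7% and that of HSPA1B 58.8%. In the class of 58 to 60% GC, with 631 genes, the medians were -0.20, -0.21 and -0.17 in siMCT4 libraries 1, 2 and 3. HSPA1A stood at -0.17, -0.34 and 0.43 and HSPA1B at -0.33, -0.50 and 0.36 in the same libraries. In library 3 the pair was thus above its class, and in libraries 1 and 2 near or below it. HSPA1A lies at the upper edge of that class. The next class, of 60 to 64% GC, had medians of -0.40, -0.45 and -0.17, and HSPA1A stood above these in every siMCT4 library. With the GC offset HSPA1A changed by 0.25 (adjusted p = 0.196) and HSPA1B by 0.09 (adjusted p = 0.74), neither called. HSPH1, with 39.95% GC, stood at 1.0, 0.97 and 1.16, whereas the classes on either side of 40% had medians of 0.05 to 0.15. With the GC offset HSPH1 changed by 0.97 (adjusted p = 6.4e-06) and HSP90AB1 by 0.31 (adjusted p = 0.000168), both called higher as without it.

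HSPD1 and HSPE1, the barrel and the lid of the mitochondrial chaperonin, are divergent neighbours on chromosome 2. HSPD1 had 486, 491 and 440 CPM in siMCT4 and 402, 417 and 421 CPM in controls. All siMCT4 libraries were above the controls, with library 3 the closest to them. The log2 change was 0.19 (SE 0.0525; adjusted p = 0.0225); 7 of 19 alternatives lost the call, library 3 alone giving 0.11 (adjusted p = 0.160), while without library 3 it was 0.26 (adjusted p = 0.000373). HSPE1 had 54.9, 47.6 and 38.1 CPM in siMCT4 and 31.7, 29.9 and 41.6 CPM in controls. Libraries 1 and 2 of siMCT4 were above all controls, but library 3 was below control library 3. The log2 change of 0.45 (SE 0.165) was larger than that of HSPD1 and was not called (adjusted p = 0.0671), although 8 of 19 alternatives called it. Among these were DESeq2 (0.46, adjusted p = 0.00804) and the fit without siMCT4 library 3 (0.60, adjusted p = 0.00811), while library 3 alone gave 0.17 (adjusted p = 0.530).

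The FPKM ratio of HSPD1 to HSPE1 was 2.12, 2.47 and 2.76 in siMCT4 and 3.04, 3.34 and 2.42 in controls, and the groups overlapped (exact permutation p = 0.3, adjusted p = 0.386). The deposited intervals of HSPD1 (chr2:197486584-197500274, minus strand) and HSPE1 (chr2:197500140-197503449, plus strand) share 135 bases. Pseudogenes of HSPD1 (6 in the table) held counts equal to 1.61% of those of HSPD1 in siMCT4 and 1.66% in controls. For HSPE1 the 11 pseudogenes held 1.34% and 2.54%. Adding these counts, an alternative chosen after the data were seen, changed no call of the 10 chaperones.

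Per length, HSP90AB1 was the most abundant of the 10 in both groups, at 799 ± 42.3 FPKM in siMCT4 and 587 ± 13.04 FPKM in controls. HSPA8 followed with 246 ± 11.1 and 217 ± 6.96 FPKM, and HSP90AA1 with 189 ± 0.303 and 174 ± 4.77 FPKM. These 3 ranks were separated without overlap in each group. FPKM carries no TMM scaling, whose factors were 1.03 in every siMCT4 library and 0.969 to 0.972 in controls, so on FPKM HSPA8 and HSP90AA1 did not overlap between the groups as they did in CPM. For HSPB1 the reverse held, siMCT4 library 3 at 24.3 FPKM lying above control library 2 at 23.9 FPKM. In siMCT4 HSPA1B (69.2 ± 23.0), HSPD1 (59.8 ± 3.66), HSPA1A (57.0 ± 16.6) and HSPH1 (54.4 ± 3.74 FPKM) followed, and each overlapped its neighbour in the order. HSPE1 (24.8 ± 4.51) and HSPB1 (19.5 ± 4.29 FPKM) overlapped as well, and DNAJB1 was the lowest at 15.7 ± 0.0724 FPKM. In controls the order below HSP90AA1 was HSPA1B (69.04 ± 2.16), HSPA1A (52.5 ± 0.436), HSPD1 (48.5 ± 1.23), HSPB1 (29.6 ± 5.99), HSPH1 (24.4 ± 1.23), HSPE1 (16.9 ± 2.94) and DNAJB1 (12.9 ± 0.688 FPKM), where only HSPB1 and HSPH1 overlapped. Summed over the 10, the level was 1535 ± 13.4 FPKM in siMCT4 and 1231 ± 20.7 FPKM in controls, without overlap (exact permutation p = 0.1, adjusted p = 0.15). The sum is carried by HSP90AB1, the largest term.

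**Figure D4:**
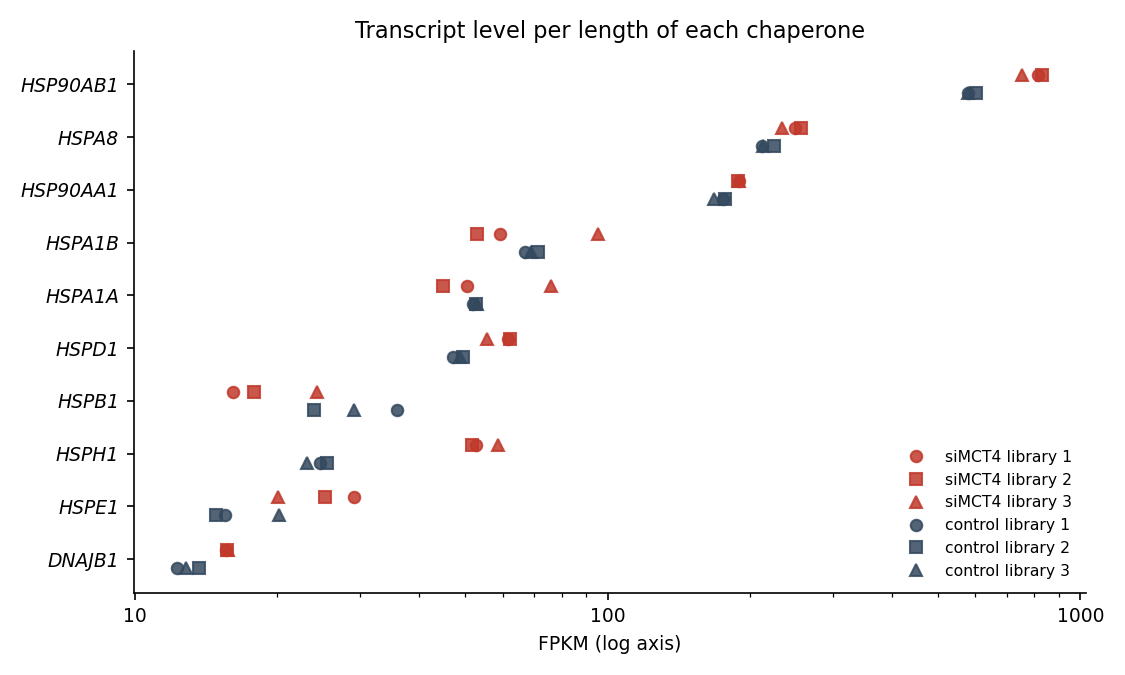
Per-length level (deposited FPKM, log axis) of the 10 chaperones in the 3 siMCT4 and the 3 control libraries, 1 point per library. HSP90AB1 is highest in both groups, and on the log axis HSPH1 has the widest gap between the groups.

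HSF1, the factor that drives the heat shock response, had 50.2, 48.5 and 97.2 CPM in siMCT4 and 105, 104 and 96.8 CPM in controls. Libraries 1 and 2 of siMCT4 were far below the controls and library 3 lay among them, so its log2 change of -0.64 was not called (adjusted p = 0.0806). Without siMCT4 library 3 it was -1.02 (adjusted p = 3.05e-06), and with the GC offset -0.08 (adjusted p = 0.574); the GC content of HSF1 is 64.7%. HSF2, a related factor that can join HSF1 on heat shock elements, had 26.6, 22.2 and 27.6 CPM in siMCT4 and 18.1, 18.9 and 18.2 CPM in controls. It was higher in all siMCT4 libraries (0.47, SE 0.0953, adjusted p = 0.00643) and remained so from library 3 alone (0.60, adjusted p = 0.00255). Of 9 tested heat shock factors and regulators, 4 rose and 0 fell, a called share of 44.4% that is near the 41.4% of all tested genes. The others that rose were EP300 (0.60) and CREBBP (0.30), acetyltransferases that modify HSF1, and HSBP1 (0.53), an HSF1-binding inhibitor. CREBBP lost its call in 3 of 19 alternatives and HSBP1 in 1.

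The lists that follow share members, so their counts are not separate. Every called share below is to be read against the 41.4% of all tested genes, with 20.6% called higher and 20.8% lower. Counts of calls under another setting have another background. Without siMCT4 library 3, 4894 of 20861 tested genes were called higher and 4814 lower, against 4116 and 4144 of 19944 with all libraries. The background from library 3 alone differs as well, so a gain or loss of calls need not be particular to a list. Among 18 other genes known as heat shock response targets, all tested, 10 rose and 0 fell, the median being 0.32 on the log2 scale; the called share of 55.6% stands beside 41.4% of all tested genes, and 20.6% called higher. Of these 18 genes, 10 are also in another list, and so are 7 of the 10 that rose: AHSA1, STIP1, FKBP4 and CHORDC1 among the Hsp90 co-chaperones, DNAJA1 among the J-domain proteins, BAG3 among the exchange factors and SERPINH1 in the endoplasmic reticulum. SERPINH1 (Hsp47), a collagen chaperone of the endoplasmic reticulum, stood at 54.5 ± 4.04 CPM in siMCT4 and 26.2 ± 1.80 CPM in controls (1.05, adjusted p = 5.6e-05). AHSA1, which stimulates the ATPase of Hsp90, stood at 125 ± 12.2 and 65.1 ± 3.86 CPM (0.94, adjusted p = 0.000109). The list gave 9 rises and 1 fall from siMCT4 library 3 alone, and 12 rises and 1 fall without it. The 8 not called were CRYAB, HSPA4L, UBB, TCP1, ZFAND2A, CACYBP, RGS2 and DEDD2. Their log2 changes were, in that order, 0.32, 0.17, 0.15, 0.07, -0.02, -0.04, -0.29 and -0.40.

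The co-chaperones of Hsp90 had 10 rises and 3 falls among 17 tested, with a median of 0.28 and a called share of 76.5%. From library 3 alone there were 9 rises and 2 falls, and without it 11 and 4. FKBP5, an immunophilin of steroid receptor complexes, was 27.7 ± 0.531 CPM in siMCT4 and 9.43 ± 0.341 CPM in controls (1.56, adjusted p = 5.52e-06). TTC4 (0.76) and STIP1 (0.32), which links Hsp70 to Hsp90, rose too, and STIP1 is the most abundant of the list at 1207 ± 63.8 and 968.8 ± 4.90 CPM. The 3 that fell were FKBP8, UNC45A and STUB1 (-1.24, -0.34 and -0.32), whose GC contents are 66.6%, 60.0% and 65.0%. With the GC offset the count was 11 rises and 1 fall.

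J-domain proteins of the cytosol had 4 rises and 3 falls among 14 and a median of 0.03, a called share of 50.0% that is near the 41.4% of all genes. From library 3 alone there were 3 rises and 4 falls, and without it 5 and 3. DNAJB4, a close relative of DNAJB1, was 35.5 ± 2.15 CPM in siMCT4 and 11.2 ± 1.12 CPM in controls (1.67, adjusted p = 1.5e-05). DNAJA1, the abundant farnesylated partner of Hsp70, was 273 ± 29.3 and 151 ± 10.2 CPM (0.86, adjusted p = 0.000243). DNAJB6 rose by 0.38, DNAJB5 changed by -0.53, and DNAJB1 itself, described above, moved far less than DNAJB4 or DNAJA1. The list of nucleotide exchange factors, which reset Hsp70, holds the BAG proteins by family, and an exchange role of each member was not tested. It had 3 rises and 2 falls among 7 (71.4% called), and 3 falls without siMCT4 library 3. BAG3 (0.80) and BAG5 (0.35) rose, while BAG6 (-0.59) and BAG1 (-0.61) fell.

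The other Hsp70 and Hsp110 genes counted 3 rises and 2 falls among 7 tested (71.4% called), with 2 of each from library 3 alone and 3 rises and 2 falls without it. HSPA6, a strictly stress-induced Hsp70, was 5.32 ± 0.445 CPM in siMCT4 and 11.4 ± 0.777 CPM in controls, a log2 change of -1.10 (adjusted p = 0.000318) that was -0.95 from library 3 alone; its near-identical pseudogene HSPA7 makes the value uncertain. HSPA12A changed by -1.18, HSPA14 by 0.39 and HSPA1L, which lies beside HSPA1A, by 0.91. HSPA12A was low, at 1.035 ± 0.103 CPM in siMCT4 and 2.35 ± 0.245 CPM in controls. Its change shrank to as little as -0.22, and it lost its call in 1 of 17 alternatives. HSPA1L, at 3.81 ± 0.551 and 2.02 ± 0.432 CPM, lost its call in 1 of 19. HSPH1 and HSPA6, both known as heat-inducible, thus moved in opposite directions. Of 9 genes listed with the small heat shock proteins besides HSPB1, 7 were in the table and 3 were tested. HSPB7 fell by 1.30 on the log2 scale (adjusted p = 0.000218), and CRYAB (0.32) and HSPB11 (0.19) were not called.

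Mitochondrial chaperones and proteases were mostly not called: 2 rose, 2 fell and 12 of 16 did not pass, with a median of -0.11; the called share of 25.0% is below that of all genes. HSPA9, the mitochondrial Hsp70, was 863.8 ± 28.6 CPM in siMCT4 and 922.5 ± 10.7 CPM in controls (adjusted p = 0.095), and TRAP1, the mitochondrial Hsp90, 70.1 ± 3.60 and 69.1 ± 2.14 CPM (adjusted p = 0.792). GRPEL2 (-0.45) and CLPB (-0.23) fell, and DNAJC11 (0.36) and YME1L1 (0.13) rose. YME1L1 lost its call in 10 of 19 alternatives (down to 0.06) and CLPB in 8 of 19 (to -0.02). Without siMCT4 library 3 there were 5 falls in place of 2.

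Of the 8 subunits of the cytosolic chaperonin CCT, 2 rose (CCT2 by 0.33 and CCT3 by 0.28) and 1 changed downward (CCT4, -0.40), a called share of 37.5%; CCT3 lost its call in 5 of 19 alternatives and CCT4 in 3. Without siMCT4 library 3 the CCT rises were 5, and from library 3 alone there was 1. Prefoldin, which passes nascent actin and tubulin to CCT, had 0 rises and 4 falls among 6 subunits (66.7% called), with a median of -0.46. The falls were those of PFDN5 (-0.80), PFDN2 (-0.62), PFDN1 (-0.49) and PFDN4 (-0.43), and PFDN4 lost its call in 11 of 19 alternatives. Falls among prefoldin subunits were 3 both without library 3 and from library 3 alone, 5 with the GC offset and 2 on log2(TPM + 1). In the endoplasmic reticulum 7 of 17 chaperones rose and 4 fell (64.7% called). HSP90B1 (Grp94), the Hsp90 of that compartment, was 640.0 ± 14.9 CPM in siMCT4 and 891 ± 16.9 CPM in controls (-0.48, adjusted p = 7.18e-05), whereas HSPA5 (BiP), its Hsp70, was not called (-0.09, adjusted p = 0.213). CANX also fell (-0.46), and DNAJC3 rose (0.53). Without siMCT4 library 3 the falls in this compartment were 7.

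**Figure D5:**
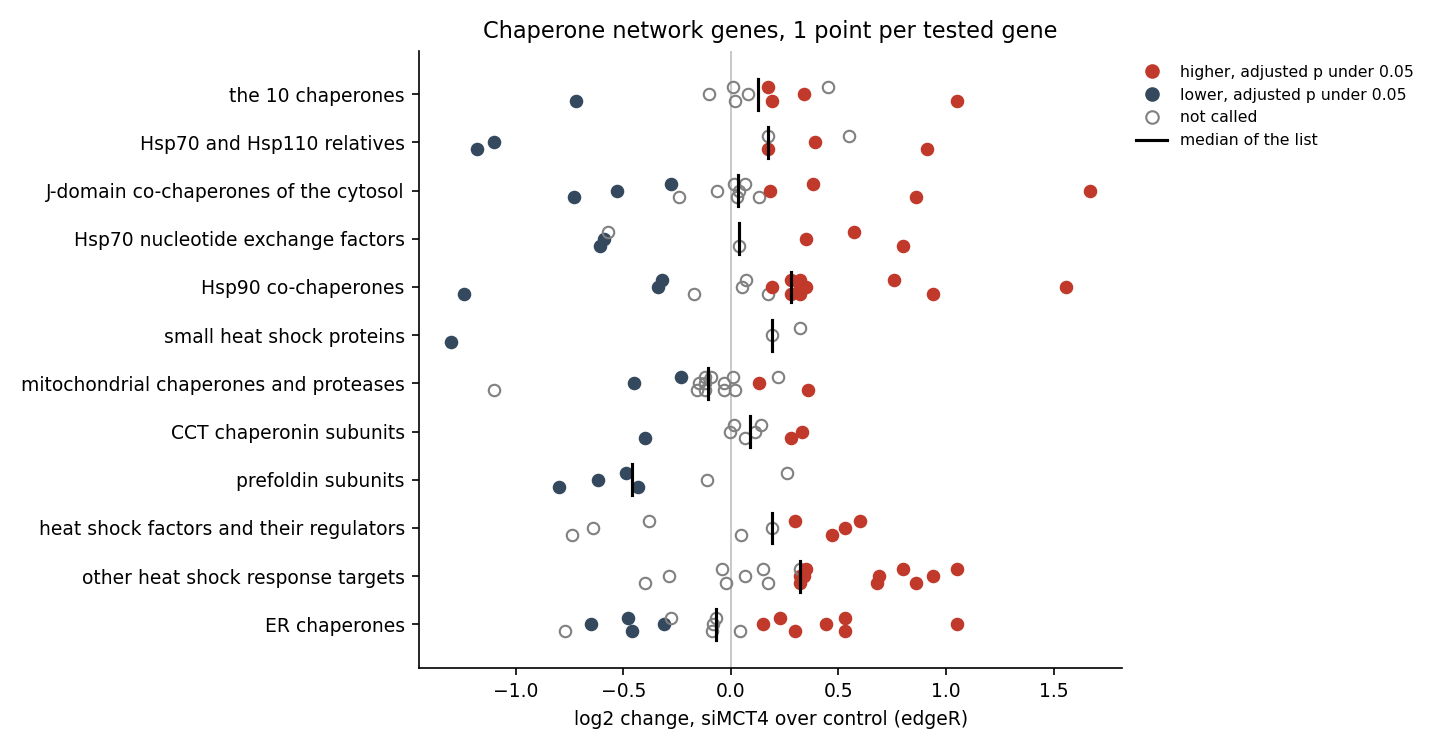
log2 change (siMCT4 over control, edgeR) of each tested gene of the chaperone network by list, with a bar at the median of the list. The heat shock response targets and Hsp90 co-chaperones have medians of 0.32 and 0.28 and share 4 genes, each drawn in both rows, and the prefoldin subunits have a median of -0.46.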

How the data were processed

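Polyadenylated RNA was sequenced as paired ends after dUTP strand marking, as the labels' protocols state. Tools named in the submitters' processing notes are cutadapt 1.9 and HISAT2 2.2.1, with build GRCh38. How genes were counted, on which annotation and with which strand setting, is not given in the sources used here. The authors deposited raw counts and FPKM per gene and library, per the file headers, and 0 sample columns went unused.

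Counts were tested with edgeR 4.0.16 (R 4.3.3) quasi-likelihood fits over all genes, with TMM scaling, group as sole factor and filterByExpr (smallest count 10, smallest total 15), which left 19944 genes. The test was two-sided with Benjamini-Hochberg adjustment over all of them, called under 0.05. Standard errors are the log2 change over the square root of F. CPM uses TMM library sizes, and levels between genes are compared in FPKM. Ratios within a library used exact permutation tests. Total counts of 61880619 to 69181938 per library set the precision, with a common biological coefficient of variation of 0.219. The floor of 3 counts covers counting error only.

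GC content came from the longest GENCODE 29 transcript, for 96.8% of tested genes. Classes of GC content were cut at 40, 45, 50, 55, 58, 60 and 64%. Promoter letters are from RefSeq. The edgeR step was also run on simulated counts with known changes. That run does not measure the error rate of the fit in these data. Alternatives were other scalings, DESeq2 1.42.0, limma 3.58.1 on log2(FPKM + 1), log2(FPKM + 0.1) and log2(TPM + 1), other filters, a replicate block, a GC offset and leaving out libraries. The first pseudocount is 1. On limma scales genes needed a mean FPKM of 0.1.

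Members and lists were chosen with earlier results of these data known. Named were SLC16A3, the 10 members, HSF1, HSF2 and up to 4 called genes per list by adjusted p; 1 gene that this rule takes is not reported here. UBB, TCP1, CACYBP, ZFAND2A, DEDD2, RGS2, HSPA4L, FKBP8, UNC45A, STUB1, HSPA9, TRAP1, CRYAB, HSPB11, HSPA5, CD68, CD14, CD163, TRAC, COL1A1, COL1A2, COL3A1, DCN, KRT8, KRT18, VWF, KDR, TEK, CLDN5 and the genes that overlap a chaperone were named after their values were seen.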

Additional observations from a re-analysis of the deposited data

How the results depend on the processing

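The lowest count of a chaperone in any library was 1733 (HSPB1). Each chaperone was recomputed under 19 alternatives. HSPH1 and HSP90AB1 kept their direction and call in all of them. The rises among the 10 numbered 2 to 6 when 1 library was left out, 7 on log2(TPM + 1) and 2 with the replicate block, and the falls 0 to 3 when 1 library was left out. The calls over all genes moved too, and without siMCT4 library 3 they numbered 9708 of 20861 tested genes. There were 0 falls on log2(TPM + 1), with the GC offset, with the GC offset and block, and from siMCT4 library 3 alone. On log2(TPM + 1), 68.7% of calls over all genes were higher (2651 lower), against 49.8% with TMM and 59.4% on log2(FPKM + 1), and the median of all genes was 0.11.

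The sum of HSPA1A and HSPA1B changed sign to 0.01 on both log2(FPKM) scales, 0.10 on log2(TPM + 1), 0.16 with the GC offset, 0.12 with the GC offset and block, and 0.41 from siMCT4 library 3 alone, and ran from -0.32 to 0.12 when 1 library was left out. HSPA1A reversed to -0.03 under the block and ran from -0.23 (without siMCT4 library 3) to 0.18 when 1 library was left out. HSPA1B reversed to 0.05 on log2(TPM + 1), 0.09 with the GC offset, 0.04 with the GC offset and block, 0.38 from siMCT4 library 3 alone, and to 0.02 without siMCT4 library 1, its range with 1 library left out being -0.39 to 0.08. HSP90AA1 reversed to -0.03 with the GC offset, with or without the block, and to -0.00 without control library 3. The cause of these moves was not tested.

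Replicate numbers do not pair the libraries: over 11236 genes the correlations of same-numbered deviations were -0.21, -0.005 and -0.16, and 0 of 6 libraries correlated best with its own number. Under the replicate block HSPD1 (adjusted p = 0.0594) and DNAJB1 (adjusted p = 0.0612) lost their calls, and over all genes 3341 were higher and 3580 lower, against 4116 and 4144 without it.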
